A study of Mus musculus with 16 samples.

Results

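The genes described here are 10 that are used to recognise oligodendrocyte precursors, of the 51912 genes listed in every count file. They are the transcription factor genes Olig1, Olig2, Sox10 and Sox8, the receptor and surface protein genes Pdgfra, Gpr17, Cspg4 and Ptprz1, the matrix proteoglycan gene Bcan, and Lhfpl3, which encodes a tetraspan membrane protein. Lhfpl3 was chosen because it had been called higher in cKO than in ctrl in these same mice, so its values were selected on and are described with no test. The other 9 were picked as known precursor genes and were tested. Of these, Bcan had already been called lower in cKO than in ctrl by the study in these same mice. Its test in that comparison is therefore a repeat and not independent support.

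The study deleted Knl1 (Casc5), a kinetochore gene, to ask how the developing cortex responds to chromosome segregation errors. Total RNA of cerebral cortex at embryonic day 15.5 was sequenced as 16 libraries from 15 mice. The 7 ctrl mice were 5 labelled Casc5 wild type and 2, T4 and T5, labelled Casc5 heterozygous, and the labels do not say whether they carried Cre. The 4 cKO mice were hGFAP-Cre Casc5 conditional KO (mouse S2 had 2 libraries, S2 and S2b, whose counts were summed), and the 4 dKO mice were hGFAP-Cre Casc5/Trp53 double conditional KO. hGFAP-Cre recombines in cortical neural progenitors (NPCs), so cells from other sources, such as ventrally born precursors, interneurons, vessels and meninges, need not have lost the gene. Mice came from 4 litters and 3 sequencing batches as the labels give them, and all 4 dKO mice were in batch 3. Litter 4 held no ctrl mouse.

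Oligodendrocyte precursors arise from progenitors that express Olig2, respond to PDGF through the receptor encoded by Pdgfra, and later depend on Sox10 to turn on myelin genes. The first precursors of the forebrain come from ventral progenitors patterned by sonic hedgehog and migrate into the cortex, while cortical progenitors contribute later, so a cortex at this age holds few of them. Several of the genes are not confined to this lineage. Ptprz1, Bcan and Sox8 are also expressed by radial glia or astrocytes, Cspg4 by pericytes, Pdgfra by meningeal fibroblasts and Sox10 by Schwann cells.

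Depth set what could be seen. Total counts ran from 399832 to 3266227 in ctrl, from 4178461 to 8800987 in cKO and from 552186 to 5396803 in dKO, so every cKO mouse was deeper than every ctrl mouse. The detection floor, taken as 3 counts, corresponded to 7.50 CPM, a count scaled to library size, in the shallowest library and 0.341 CPM in the deepest mouse. The cortical genes Emx1 and Neurod6 were present in every mouse, at 14.6 CPM or more. Knl1 counts over the whole gene overlapped between groups, with medians of 68.4 CPM in ctrl, 51.15 CPM in cKO and 53.8 CPM in dKO, and Trp53 ran from 15.6 to 47.0 CPM in ctrl and from 19.8 to 32.3 CPM in dKO, so these counts do not check the labels. Ctrl mice 2 and T5 stood apart in postnatal brain genes, as described with T5, and the fold changes they decide are also given without them. CPM values are scaled by trimmed mean of M values (TMM) normalisation over the 15 mice.

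**Figure D1:**
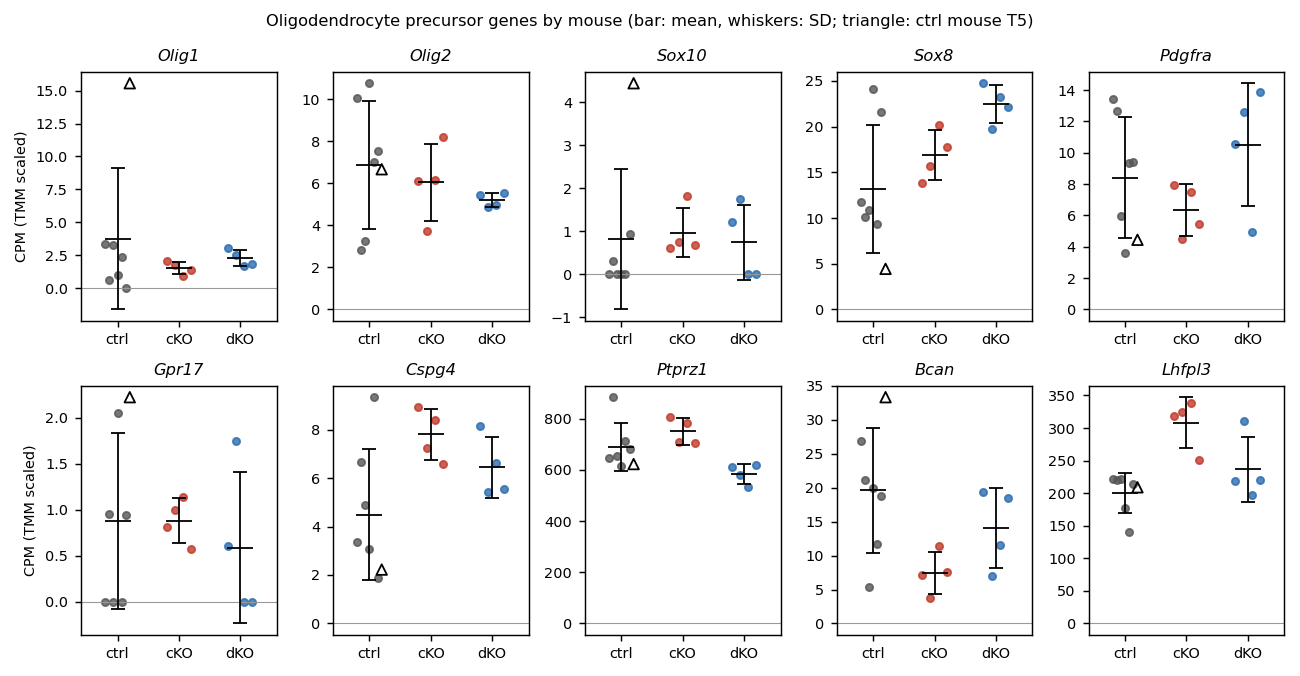
CPM of the 10 genes (y axes, 1 panel a gene, separate linear scales) in each of 7 ctrl, 4 cKO and 4 dKO mice, with the mean (bar) and SD (whiskers, which reach below 0 where a few mice carry the mean) and ctrl mouse T5 as an open triangle. Bcan lay between 3.75 and 11.4 CPM in cKO against a ctrl median of 19.98 CPM, and the high Olig1 and Sox10 values of ctrl came from T5.

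Among the 9 tested genes, Bcan was lower in cKO than in ctrl, and it was the 1 gene of the 9 called. That call repeats the study's own from these mice. Calls used edgeR's likelihood ratio test with a Benjamini-Hochberg false discovery rate (FDR) below 0.05 over all listed genes, which called 0.322% of the 25764 genes with a count in this comparison. At an unadjusted p below 0.05 there were 2 of 9, Bcan and Cspg4, where 9.47% of all genes passed. In dKO against ctrl 0 of 9 were called by edgeR, with 0.101% called over all genes, and 1 of 9 (Sox8) passed at an unadjusted p below 0.05, with 6.72% of all genes passing. In cKO against dKO 0 of 9 were called by edgeR, with 0.103% of all genes called, and 3 of 9 (Pdgfra, Ptprz1 and Bcan) passed at the unadjusted level, with 8.22% of all genes passing. DESeq2 called 1 of the 7 to which it gave an adjusted p in cKO against ctrl and 0 of 9 in cKO against dKO; in dKO against ctrl it gave an adjusted p to 1 of the 9, Ptprz1, which was not called. The median log2 fold change of the 9 was -0.06 in cKO against ctrl, -0.07 in dKO against ctrl and -0.29 in cKO against dKO, beside medians of 0.03, 0.02 and 0.03 over all genes with at least 10 counts in each group. The 3 comparisons share mice, so they are not independent of each other.

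**Figure D2:**
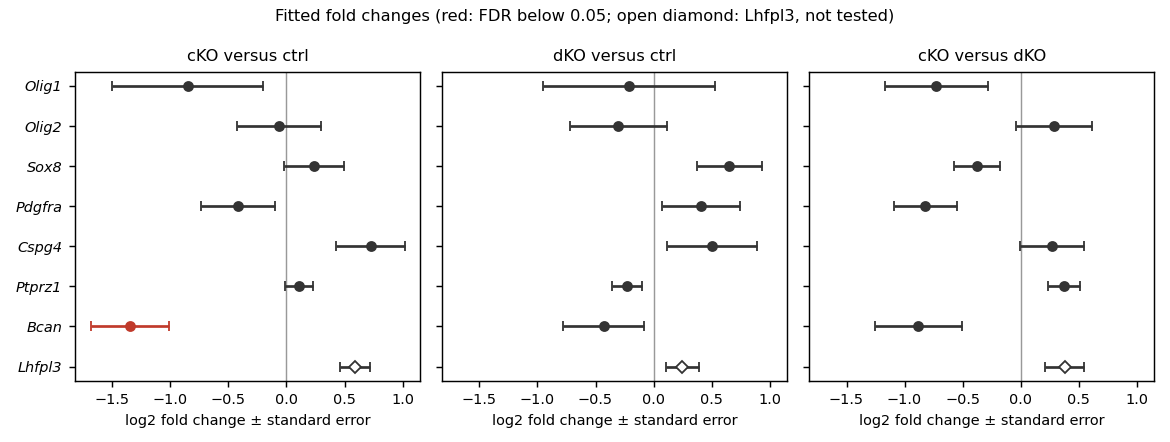
Log2 fold change (x axis) of 8 of the 10 genes in the 3 comparisons, with whiskers of 1 standard error from edgeR; Sox10 and Gpr17 are left out because a group held fewer than 10 of their counts. Bcan in cKO against ctrl (-1.35, red) was the 1 tested gene called, and Lhfpl3 (open diamond) was not tested.

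Bcan encodes brevican, a chondroitin sulphate proteoglycan of the brain's extracellular matrix made by oligodendrocyte precursors and astroglia. It lies at chr3:87987531-88000230 on the minus strand (GRCm38), and no other annotated gene overlaps it. In ctrl it ran from 5.43 CPM through a median of 19.98 CPM to 33.3 CPM, on 5 to 67 counts a mouse. In cKO it was 7.11 CPM in mouse 5, 3.75 CPM in mouse 7, 7.51 CPM in mouse S2 and 11.4 CPM in mouse F3. Of the 7 ctrl mice 6 were above every cKO mouse, and ctrl mouse S1, the lowest, was within the cKO range. Over the 7 ctrl mice the mean was 19.6 ± 9.21 CPM (SD, n = 7), and over the 4 cKO mice it was 7.43 ± 3.12 CPM (SD, n = 4). Bcan fell by 1.35 on the log2 scale (standard error 0.34, FDR 0.044 by edgeR's likelihood ratio test). In these bulk samples fewer cells of a type and less RNA per cell cannot be told apart.

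The litters carried the Bcan difference unevenly. In litter 1 the ctrl mice were at 26.9 and 21.2 CPM and the cKO mice at 7.11 and 3.75 CPM, so the groups did not overlap there. In litter 2 the ctrl mice were at 5.43 and 19.98 CPM, on either side of the cKO mouse at 7.51 CPM. With litter as a block the fold change was -1.46 (FDR 7.71e-06 in edgeR), with batch as a covariate it was -1.51 (FDR 6.06e-05), and within batch 1 alone, 3 ctrl against 3 cKO mice, it was -1.77 (FDR 1.81e-05). The fold change was below 0 in every fit run. Leaving out 1 mouse gave values from -1.60 to -1.12, and the FDR rose above 0.05 without ctrl mice 2 (FDR 0.104), 6 (0.0859), S3 (0.133), T3 (0.0533), T4 (0.117) and T5 (0.157) and without cKO mice 5 (0.299) and 7 (0.392), but not in the other 3 of 11 edgeR fits. Without both ctrl mice 2 and T5, Bcan fell by 1.08 (edgeR FDR 0.33), against wild-type ctrl mice only by 1.17 (0.389), with all 3 groups in a shared fit by 1.34 (0.112), and with library S2 alone for that mouse by 1.31 (0.0574).

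**Figure D3:**
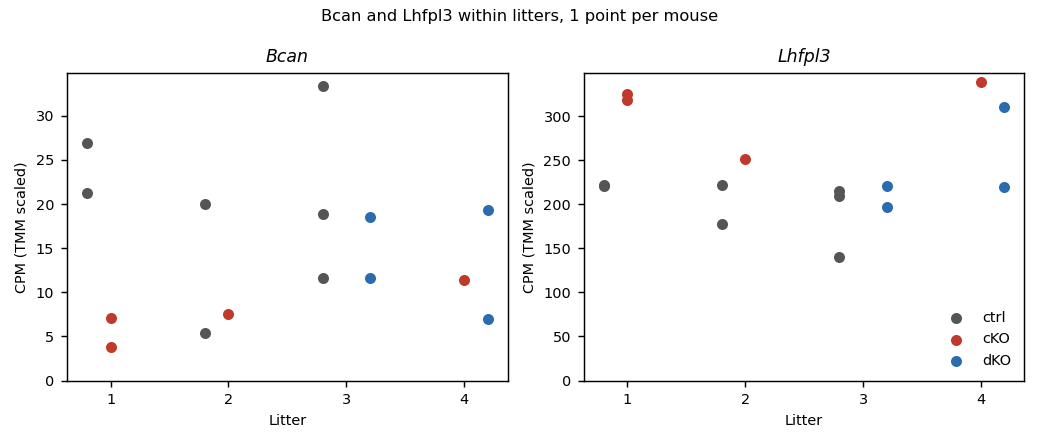
CPM (y axes, linear, from 0) of Bcan and Lhfpl3 in each mouse, placed by litter (x axes) and coloured by group. The litter 1 cKO mice sit at 7.11 and 3.75 CPM for Bcan, below their ctrl littermates, and at 318.7 and 324.8 CPM for Lhfpl3, above them.

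In dKO, Bcan was 11.6 CPM in T2, 18.5 CPM in T8, 19.3 CPM in F1 and 6.99 CPM in F7, a range that overlapped both other groups. The dKO mice differed from ctrl by a log2 fold change of -0.43 (standard error 0.35, unadjusted p = 0.222 in edgeR), with an approximate 95% interval of -1.12 to 0.26. Against dKO, cKO was at -0.88 (standard error 0.37, unadjusted p = 0.0184 and FDR 0.925 in edgeR). That value shrank to -0.15 with litter as a block, to -0.27 within batch 3 and to -0.19 within litter 4, where the cKO mouse at 11.4 CPM lay between its dKO littermates. A difference between the mutants in Bcan was thus not called in any fit run.

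Olig2 encodes the transcription factor that specifies the lineage, and its neighbour Olig1 a related factor needed for precursor maturation. They lie on chromosome 16 at chr16:91225457-91228677 and chr16:91269772-91271933, both on the plus strand (GRCm38) and 41094 bases apart. Olig2 ran from 2.85 through a median of 7.00 to 10.8 CPM in ctrl. In cKO it was 6.09, 3.75, 8.19 and 6.14 CPM in mice 5, 7, S2 and F3, and in dKO it was 4.97, 5.54, 5.43 and 4.85 CPM in mice T2, T8, F1 and F7. The 3 ranges overlapped, and the dKO mice spread least (SD 0.34 CPM). The cKO against ctrl log2 fold change was -0.06 with an approximate 95% interval of -0.77 to 0.64, and dKO against ctrl was -0.30 with an interval of -1.13 to 0.53, so a change of the size seen for Bcan in cKO was outside both intervals.

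Olig1 was sparse, with at most 13 counts in any mouse. It was 15.6 CPM in ctrl mouse T5, on 7 counts, and between 0 and 3.36 CPM in the other 6 ctrl mice. In cKO it ran from 0.909 to 2.03 CPM and in dKO from 1.66 to 3.02 CPM. Pooled over mice and without TMM scaling, Olig1 gave 20 counts in ctrl or 2.12 CPM (exact Poisson 95% interval 1.29 to 3.27), 33 in cKO or 1.42 CPM (0.977 to 1.99) and 26 in dKO or 2.48 CPM (1.62 to 3.63), intervals that cover counting error only. Without T5 the ctrl rate was 1.44 CPM. The cKO against ctrl log2 fold change of -0.85 (standard error 0.65) became 0.03 without T5, and dKO against ctrl went from -0.21 (standard error 0.74) to 0.68.

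Sox10, the factor that drives the myelin programme, was near the floor. It had 0 counts in 4 of 7 ctrl mice and in 2 of 4 dKO mice, and at most 9 counts in any mouse. Pooled rates were 0.424 CPM in ctrl (4 counts, exact Poisson 95% interval 0.115 to 1.08), 0.861 in cKO (20 counts, 0.5256 to 1.33) and 1.24 in dKO (13 counts, 0.66 to 2.12). These intervals overlap, 2 of the 4 ctrl counts were from T5, and no fold change is given.

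Sox8, a relative of Sox10 that acts with it in glia, was 23.2, 22.2, 24.8 and 19.8 CPM in T2, T8, F1 and F7, and 13.8, 15.8, 17.7 and 20.2 CPM in cKO mice 5, 7, S2 and F3. In ctrl it ran from 4.45 through a median of 10.9 to 24.1 CPM, with 5 of 7 ctrl mice below every dKO mouse and 2, S3 and T4, within the dKO range. The dKO against ctrl log2 fold change was 0.65 (standard error 0.28, unadjusted p = 0.0182 and FDR 1 in edgeR), and cKO against ctrl was 0.24 (standard error 0.26). The gene 2810468N07Rik overlaps Sox8 on the opposite strand and had 43 counts over all mice against 733 for Sox8; the sources used here do not state whether counting used strand.

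Pdgfra, the receptor through which PDGF expands the precursor pool, ran from 3.59 through a median of 9.34 to 13.4 CPM in ctrl. In cKO it was 7.92, 4.50, 5.46 and 7.50 CPM in mice 5, 7, S2 and F3, and in dKO 4.97, 13.9, 10.6 and 12.6 CPM in T2, T8, F1 and F7. Of the 4 dKO mice 3 were above every cKO mouse, and T2, on 3 counts, was within the cKO range. In cKO against dKO the log2 fold change was -0.82 (standard error 0.27, unadjusted p = 0.0024 and FDR 0.505 in edgeR), and it was negative in every alternative fit, from -0.94 to -0.56. Meningeal fibroblasts also express Pdgfra. In dKO their genes summed to 167.2 CPM in T8 and to 6.63 CPM in T2, the dKO mice highest and lowest for Pdgfra. The sum was 31.1 CPM in F1 and 21.3 CPM in F7, and it ran from 13.8 to 25.2 CPM in cKO. In ctrl, T3, highest for the list at 186.7 CPM, had Pdgfra at 9.34 CPM. Ctrl mouse 2, highest of ctrl for Pdgfra at 13.4 CPM, was at 18.5 CPM for the list. The part of those cells in the Pdgfra difference was not tested.

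Cspg4 (NG2), the surface proteoglycan of precursors and pericytes, ran from 1.88 through a median of 3.36 to 9.34 CPM in ctrl, on 1 to 21 counts. In cKO it was 8.94, 7.25, 6.60 and 8.41 CPM in mice 5, 7, S2 and F3, above 5 of the 7 ctrl mice and at or below T3, the highest ctrl mouse on 4 counts. In dKO it was 6.63, 5.54, 8.15 and 5.43 CPM in T2, T8, F1 and F7. The cKO against ctrl log2 fold change was 0.72 (standard error 0.29, unadjusted p = 0.0136 and FDR 0.683 in edgeR). The summed level of 8 mural cell genes was 60.0 to 99.4 CPM in ctrl and 82.5 to 88.3 CPM in cKO, with 0 of 8 called by edgeR. In cKO against ctrl 1, Rgs5, was higher at an unadjusted p below 0.05 (log2 fold change 0.39). Notch3 was at -0.43 (unadjusted p = 0.0578 in edgeR), and the median log2 fold change of the 8 was -0.36.

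Ptprz1 encodes a receptor tyrosine phosphatase shared by radial glia and precursors, and it had 280 to 6192 counts a mouse. It ran from 614.6 through a median of 653.7 to 883.6 CPM in ctrl. In cKO it was 806.5, 708.1, 704.4 and 783.7 CPM in mice 5, 7, S2 and F3, and in dKO 532.1, 617.2, 611.9 and 578.8 CPM in T2, T8, F1 and F7. Every cKO mouse was above every dKO mouse, as held for 1 of the 9 tested genes and for 2.71% of all genes in either direction. The cKO against dKO log2 fold change was 0.37 (standard error 0.14, unadjusted p = 0.0061 and FDR 0.62 in edgeR), and with litter as a block and in every other alternative it stayed between 0.26 and 0.44. Against ctrl, where 0 of the 9 did not overlap in either comparison (1.09% of all genes in cKO and 0.467% in dKO), it was at 0.11 (standard error 0.12) in cKO and at -0.23 (standard error 0.13) in dKO.

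Gpr17, a receptor of precursors committed to differentiate, had 9, 18 and 11 counts in ctrl, cKO and dKO. The pooled rates of 0.953 (exact Poisson 95% interval 0.436 to 1.81), 0.775 (0.459 to 1.22) and 1.05 CPM (0.523 to 1.88) overlapped. A difference was not detectable at this depth. Lims2 overlaps Gpr17 on the opposite strand and had 63 counts over all mice against 38 for Gpr17, so the Gpr17 counts are uncertain.

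Lhfpl3 encodes a tetraspan membrane protein and is used as a marker of precursors in the adult brain. It lies at chr5:22746059-23275597 on the plus strand (GRCm38), and 6030443J06Rik overlaps it on that strand with 623 counts against 11216. In ctrl it ran from 140.1 through a median of 214.5 to 221.7 CPM. In cKO it was 318.7 CPM in mouse 5, 324.8 CPM in mouse 7, 251.4 CPM in mouse S2 and 338.7 CPM in mouse F3, all above the ctrl mice, which is the contrast it was chosen on. In dKO it was 197.3, 220.8, 219.2 and 310.1 CPM in T2, T8, F1 and F7, with F7 within the cKO range and the other 3 close to ctrl. Fitted log2 fold changes were 0.59 (standard error 0.13) in cKO against ctrl, 0.25 (0.14) in dKO against ctrl and 0.38 (0.17) in cKO against dKO. The dKO against ctrl value was 0.09 without F7 and 0.06 without litter 4. F7 came from litter 4, whose cKO mouse F3 also had the highest value of all.

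Across the mice, Lhfpl3 followed none of the other precursor genes closely. Olig1, Sox10 and Gpr17 had at most 13, 9 and 9 counts in any mouse, so sparse counts limit what their correlations could show. The Pearson correlation of log2 CPM of Lhfpl3 with each of the others ran from -0.51 with Bcan to 0.46 with Sox10 over 15 mice. It is a description only, since depth and group are shared by the points. The 5 genes most like Lhfpl3 among 9177 others with a mean of at least 10 CPM were Scn3a (r = 0.95), Prkar2b (0.94), Mycbp2 (0.92), Syt4 (0.91) and Appl1 (0.91). Scn3a encodes a voltage-gated sodium channel and Syt4 a synaptotagmin. Beside Lhfpl3, 3 of 11 cortical interneuron genes rose in cKO against ctrl and 0 fell by edgeR, where 0.322% of all genes were called. They were Nxph1, a neurexin ligand (log2 fold change 0.65, standard error 0.14, FDR 0.00462), Erbb4, a neuregulin receptor (0.56, 0.14, FDR 0.0361), and Gad1, a GABA synthesis enzyme (0.56, 0.14, FDR 0.0408). The study had called these 3 higher in cKO in these same mice. The list was made with earlier results known, so the count is a description. All 3 stayed above 0 over the 11 fits without 1 mouse. The Nxph1 call was lost without cKO mouse 5 or 7 (FDR up to 0.153), the Erbb4 call held only without ctrl mouse 2 or 6 or cKO mouse S2 or F3 (FDR otherwise up to 0.786), and the Gad1 call only without ctrl mouse S3 or cKO mouse S2 (up to 0.495). Without TMM the Erbb4 and Gad1 calls were lost (edgeR FDR 0.189 and 0.239). Against wild-type ctrl mice only, Erbb4, Gad1 and Nxph1 were all above the threshold (edgeR FDR 0.262, 0.119 and 0.0501). Their list summed to 2463 to 3292 CPM in ctrl, 3774 to 5527 CPM in cKO and 2870 to 3359 CPM in dKO. Erbb4 and Nxph1 made up most of that sum, at means of 1723 and 611.3 CPM in ctrl and 2581 and 973.5 CPM in cKO. The sum therefore largely restates their calls. The part of interneurons in the Lhfpl3 level was not tested. Of the 5 other LHFPL family genes, 0 were called in any comparison by edgeR or passed at an unadjusted p below 0.05.

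Genes that act around the 10 were counted by list, each gene tested singly. At an unadjusted p below 0.05, 9.47% of all genes passed in cKO against ctrl, in either direction. The share was 6.72% in dKO against ctrl and 8.22% in cKO against dKO. Of 16 other regulators of the lineage, 0 were called by edgeR in any comparison. In cKO against ctrl 1 was higher and 3 lower at an unadjusted p below 0.05, among them Tcf7l2, a Wnt effector (log2 fold change -0.53, FDR 0.243), and Id4, an inhibitor of differentiation (-0.52, FDR 0.566). Of 16 genes of the PDGF and sonic hedgehog pathways, 0 were called by edgeR in any comparison. Of them 6 were lower at an unadjusted p below 0.05 in cKO against ctrl and 4 in dKO against ctrl, with 0 higher in both. The hedgehog co-receptor gene Cdon was at -0.62 (edgeR FDR 0.0743) and the effector gene Gli2 at -0.58 (FDR 0.124) in cKO, and the co-receptor gene Gas1 at -0.87 (FDR 0.574) and Gli3 at -0.46 (FDR 0.939) in dKO. Of 11 matrix proteoglycans and ligands of PTPRZ1, 0 were called by edgeR in any comparison, and in cKO against ctrl Cntn1 was at 0.52 (FDR 0.416) and Vcan at 0.31 (FDR 0.448), both above 0 where Bcan was below.

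Of 11 other precursor markers, 10 of which had counts in cKO and ctrl, 1 was called. At an unadjusted p below 0.05 in cKO against ctrl 1 was higher and 2 lower, the median log2 fold change was 0.09, and the list summed to a median of 557.6 CPM in cKO against 464.5 CPM in ctrl. Megf11, which encodes a cell surface protein, fell by 0.65 in cKO against ctrl (standard error 0.16, edgeR FDR 0.0407). The ctrl mean was 55.0 ± 11.9 CPM (SD, n = 7) and the cKO mean 36.3 ± 5.84 CPM (SD, n = 4). In dKO it was 46.7 ± 9.93 CPM (SD, n = 4), at -0.35 against ctrl (edgeR FDR 1). Over fits without 1 mouse the cKO value lay between -0.74 and -0.55, and the call was lost without ctrl mice 2, 6, S3, T4 or T5 or cKO mice 5, 7 or F3 (edgeR FDR 0.0692 to 0.524). Radial glia and astrocyte genes, which share Bcan with precursors, had 0 calls by edgeR in all 3 comparisons. In cKO against ctrl 6 of 11 radial glia genes with counts and 2 of 7 astrocyte genes were lower at an unadjusted p below 0.05 and 0 higher, where 9.47% of all genes passed in either direction. Hopx was at -0.94 (edgeR FDR 0.581) and Aldoc at -0.77 (FDR 0.852). Aldoc spread widely in ctrl (22.9 ± 16.9 CPM, SD, n = 7). The astrocyte sum ran from 45.4 to 115.6 CPM in ctrl, highest in T5, and from 62.3 to 76.1 CPM in cKO. Astrocyte fold changes without T5 are not given here. The radial glia sum ran from 594.6 to 893.0 CPM in ctrl and from 614.1 to 662.9 CPM in cKO, and their part in the Bcan difference was not tested. Of 10 ventral progenitor genes 3 were higher in cKO than in ctrl at an unadjusted p below 0.05, with 0 called by edgeR and Dlx5 at 0.67 (FDR 0.789).

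Ctrl mouse T5, labelled Casc5 heterozygous and of litter 3, was singled out with its myelin signal already known, so it is described with no test. It carried a myelin signal above that of the other mice. The 27 myelin and mature oligodendrocyte genes summed to 591.3 CPM in T5 and to 76.8 to 151.7 CPM in the other 14 mice. Mbp, which encodes myelin basic protein, was 426.8 CPM in T5 on 192 counts and 20.6 to 67.7 CPM elsewhere. Ugt8a, a galactolipid enzyme gene, was 13.3 CPM on 6 counts against 2.33 to 10.1 CPM. Tspan2 and Enpp2 were both 17.8 CPM in T5, within the range of the other mice. Bcas1, picked out after its values were seen, was 22.2 CPM against at most 4.67 CPM. In all, 9 of the 27 were highest in T5, and 13 had no count there, Mag included.

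**Figure D4:**
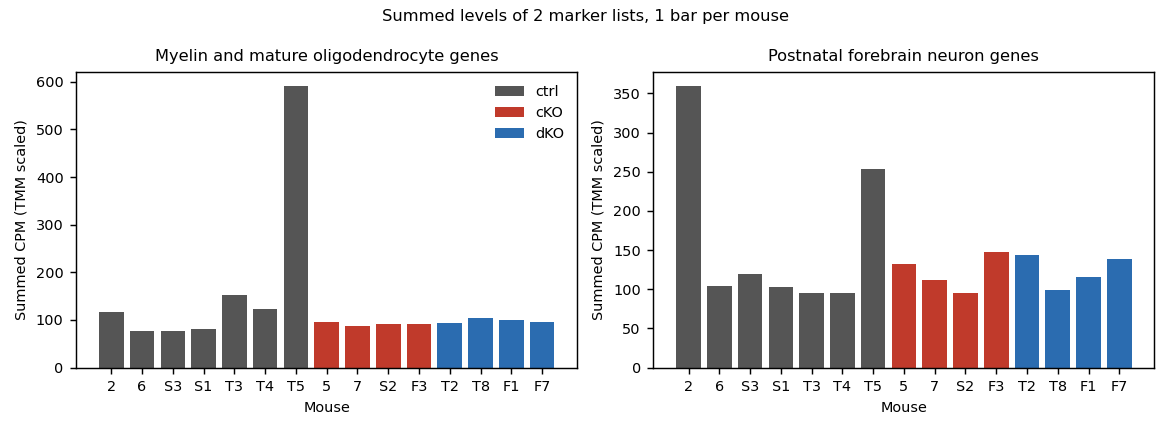
Summed CPM (y axes, linear, from 0) of 27 myelin and mature oligodendrocyte genes and of 6 postnatal forebrain neuron genes in each of 15 mice (x axes), coloured by group. T5 reached 591.3 CPM for the myelin genes, and mouse 2 reached 359.5 CPM for the neuron genes.

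Olig1, Sox10, Gpr17 and Bcan were highest of the 15 mice in T5, on 7, 2, 1 and 15 counts, while Sox8 was lowest, at 4.45 CPM on 2 counts. At the depth of T5, 1 count equalled 2.22 CPM, so a sparse gene can rank highest there on few counts. The share of all genes highest in T5 was not counted. Pdgfra and Cspg4 ranked 14 of 15 from the top, and Olig2 (6.67 CPM), Ptprz1 (622.4 CPM) and Lhfpl3 (209.0 CPM) lay within the range of the other ctrl mice. With counting error alone, Olig1 was 16.8 CPM without TMM scaling in T5 (exact Poisson 95% interval 6.74 to 34.5) against 1.68 (1.32 to 2.12) in the other 14 mice pooled. Bcan was 35.9 CPM (20.1 to 59.3) against 10.5 (9.57 to 11.5), and Sox10 was 4.79 (0.58 to 17.3) against 0.819 (0.57 to 1.14). T5 was among the shallowest libraries, with 417440 counts. Postnatal forebrain neuron genes were also high in T5, at 253.4 CPM, and in ctrl mouse 2, at 359.5 CPM with Nrgn at 186.5 CPM, against 95.04 to 148.0 CPM in the other 13 mice. Of 7 astrocyte genes, a cell type that shares Bcan, 4 were highest in T5. The astrocyte list summed to 115.6 CPM there and to 45.4 to 93.7 CPM in the other 14 mice. The choroid plexus gene Ttr was 51.1 CPM in T5 and 53.2 CPM in ctrl mouse 6.

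T5 set the spread of Olig1 in ctrl, where the SD of 5.37 CPM exceeded the mean of 3.74 CPM. The Bcan fold change in cKO went from -1.35 to -1.20 without it. Over the 27 myelin genes 0 were called by edgeR in any comparison when all mice of the 2 groups were fitted with no covariate. At an unadjusted p below 0.05 in cKO against ctrl 4 were lower and 0 higher, with Mbp at -1.60 (standard error 0.57, FDR 0.498), and in dKO against ctrl 2 were lower and 1 higher, with Mbp at -1.43 (0.53, FDR 1). T5 decided both Mbp values, which were -0.15 and -0.04 without it. With T5 kept, the dKO value was -2.25 with litter as a block (edgeR FDR 8.67e-13) and -2.43 within batch 3 (edgeR FDR 9.68e-06).

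Other cell types that could carry these genes were also followed. Schwann cell and neural crest genes, which share Sox10, had 0 of 8 called by edgeR in any comparison, and in cKO against ctrl 2 were higher at an unadjusted p below 0.05. One was Erbb3, at 0 in every ctrl mouse and at a mean of 0.409 CPM in cKO. That level is below the 3-count floor of every ctrl mouse (0.919 CPM or more), so its absence from ctrl cannot be read. Endothelial (8 genes), microglial (8) and meningeal fibroblast (8) genes had 0 called by edgeR in any comparison. The microglial list was sparse, at 7.06 to 17.8 CPM summed in ctrl. Of its genes 1 was higher in cKO and 2 in dKO against ctrl at an unadjusted p below 0.05, with 0 lower. For all genes 9.47% and 6.72% passed. Cx3cr1 was at 0.76 in cKO and 1.02 in dKO (unadjusted p = 0.0313 and 0.00754 in edgeR). In cKO against ctrl 5 of the 8 meningeal genes were lower at an unadjusted p below 0.05, as were 5 in cKO against dKO, where 9.47% and 8.22% of all genes passed. Col1a1 was at -3.13 and -3.72 (edgeR FDR 0.318 and 0.489), with an SD above its mean in ctrl (4.95 ± 8.31 CPM, n = 7) and dKO (6.51 ± 12.3 CPM, n = 4). The list sum was highest in ctrl mouse T3 (186.7 CPM) and dKO mouse T8 (167.2 CPM), with medians of 30.1 CPM in ctrl, 26.2 CPM in dKO and 20.4 CPM in cKO. Of 6 choroid plexus genes 1 was called, Ttr, lower in cKO than in ctrl (edgeR FDR 0.00652). The study had already called Ttr lower in cKO in these same mice, so this call is a repeat. It had 0 counts in ctrl mice 2, S3 and S1, 53.2, 35.0, 4.71 and 51.1 CPM in ctrl mice 6, T3, T4 and T5, and at most 1.00 CPM in cKO. The call was lost without ctrl mouse 6 (edgeR FDR 0.0525) or cKO mouse 5 (0.0751). It was also lost against wild-type ctrl mice only (edgeR FDR 0.0688) and in DESeq2 (FDR 0.112). Of 6 postnatal forebrain neuron genes 0 were called by edgeR, with Nrgn at -1.79 in cKO and -2.28 in dKO against ctrl (FDR 0.746 and 0.76). Ctrl mouse 2 decided these values, which were -0.03 and -0.56 without it; with mouse 2 and litter as a block the cKO value was -1.84 (FDR 1.45e-12).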

How the data were processed

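The deposited files hold counts of UMI-collapsed reads per gene, which the authors made from ClickSeq libraries of rRNA-depleted total RNA; the submitters' processing notes name bcl2fastq 2.17, cutadapt 1.13, STAR 2.5.2a, UMI-tools 0.5.3, HTSeq 0.6.1p1, edgeR 3.18.1 and mm10. The annotation release, the counted feature and the use of strand are not given in the sources used here, so levels were not compared between genes. Groups came from the GEO labels. The 5 summary lines of each file were left out, S2 and S2b were summed, and 51633 of 51912 gene IDs matched GENCODE M21 (GRCm38). No sequence is printed, since the reference tables given held no protein sequence for these genes.

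Each pair of groups was fitted alone with edgeR 4.0.16 (R 4.3.3): TMM, glmFit, likelihood ratio test, no covariate, Benjamini-Hochberg adjustment over all 51912 genes, FDR threshold 0.05. Standard errors were the log2 fold change divided by the square root of the likelihood ratio statistic; approximate 95% intervals are normal intervals from them. Fold changes of the 10 genes are given where each group held at least 10 counts. Mice of the same litter are littermates per the labels, so litter served as the replicate block in an alternative fit. Other alternatives were the quasi-likelihood test, DESeq2 1.42.0, other scaling and filters, covariates, subsets and leaving out 1 mouse; fits within litter 1, without litter 4, within batch 3 (cKO against dKO) and without ctrl mice 2 and T5 were chosen after seeing the data. The 10 genes and the 17 marker lists were chosen with earlier results of these data known. Named from each list were genes with FDR below 0.05, otherwise at most the 2 with the smallest p; from the myelin list the 5 most abundant, of which 1 is not reported here; for Lhfpl3 the 5 best correlated (prior count 2). Separate mice are the replicates.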

Additional observations from a re-analysis of the deposited data

Results flagged for a closer look

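In each group the lowest and highest mouse were compared with the rest of the group by Dixon's criterion for the 10 genes and 17 list sums. Of 81 sets of values 8 had a mouse standing apart, where chance gives about 1 in 20 sets. Of the 8, 3 were ctrl mouse T5, which was singled out with its myelin signal known, so its flags are a description: Olig1 at 15.6 CPM against 0 to 3.36 CPM in the other ctrl mice, Sox10 at 4.45 CPM against 0 to 0.941 CPM, and the myelin list at 591.3 CPM against 76.8 to 151.7 CPM. Sox10 was also high in cKO mouse F3, at 1.82 CPM against 0.609 to 0.75 CPM, on 8 counts. Ptprz1 was 883.6 CPM in ctrl mouse 6, against 614.6 to 714.3 CPM in the other ctrl mice. The LHFPL family, Lhfpl3 not included, summed to 179.6 CPM in cKO mouse S2, against 220.5 to 225.3 CPM in the other cKO mice; S2 also had the lowest Lhfpl3 level of the cKO mice. Meningeal fibroblast genes summed to 186.7 CPM in ctrl mouse T3 against 12.5 to 80.9 CPM, and to 167.2 CPM in dKO mouse T8 against 6.63 to 31.1 CPM.

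Ttr, the choroid plexus transthyretin gene, differed between the mutants, with a log2 fold change of -5.02 in cKO against dKO (edgeR FDR 0.000404) that rests on 8 counts in cKO. In dKO it was 23.2 and 24.9 CPM in the litter 3 mice T2 and T8 and 6.64 and 1.16 CPM in the litter 4 mice F1 and F7. Litter 3 held no cKO mouse, and its ctrl mice T3 and T5 were at 35.0 and 51.1 CPM. The FDR was 0.128 with litter as a block and 0.72 within litter 4.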

How the results depend on the processing

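For the 7 tested genes with a fold change, 481 of 499 recomputed fold changes kept their direction. Those that turned in cKO against ctrl were Olig1 (-0.85 to 0.005 with the litter block, 0.19 without ctrl mice 2 and T5, 0.63 within batch 1, 0.75 within litter 1, and from -1.09 to 0.032 over fits without 1 mouse, above 0 without T5), Olig2 (-0.06 to 0.21 with the block and within litter 1, 0.015 with library S2 alone, 0.013 with wild-type ctrl only, 0.066 without 2 and T5, and from -0.29 to 0.25 over fits without 1 mouse, above 0 without ctrl 2, cKO 7 or ctrl S3) and Ptprz1 (0.11 to -0.002 without TMM, -0.023 within litter 1). In dKO against ctrl Olig1 turned from -0.21 to 0.47 with wild-type ctrl only, 0.84 without 2 and T5, and ranged from -0.47 to 0.68 over fits without 1 mouse, above 0 without T5. The number of genes called in cKO against ctrl went from 1 to 0 with all 3 groups in a shared fit, library S2 alone, wild-type ctrl only or without 2 and T5, and was 0 to 1 over fits without 1 mouse. It was 0 in every fit of the other comparisons. The median fold change of the 9 genes in dKO against ctrl moved to 0.40 without 2 and T5, and in cKO against dKO to 0.25 with batch as a covariate and 0.26 within batch 3; leaving out 1 mouse gave -0.21 to 0.35 and -0.46 to 0.11. The cause of these shifts was not tested. The block changed no call among the 9 genes. The filterByExpr filter removed Olig1 from every comparison, and Olig2 and Cspg4 from dKO against ctrl, so these have no value there. The 30 group means of CPM moved by less than 1 SD without TMM, and the 72 Lhfpl3 fold changes by less than 1 SD of log2 CPM among mice of a group, though in dKO against ctrl 0.25 became 0.09 without F7 and 0.06 without litter 4. Depth limits Olig1, Sox10 and Gpr17 most, since 3 counts in the shallowest library equal 7.50 CPM.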
